A study of Mus musculus with 12 samples.

Results

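The 9 genes described here encode the enzymes that write, maintain and remove methyl groups on cytosine in mouse DNA: Dnmt1, Dnmt3a, Dnmt3b, Dnmt3l, Uhrf1, Tet1, Tet2, Tet3 and Tdg. They were chosen by name, were found by gene identifier among the 38924 genes counted in each library, and all 9 passed the filter on low counts that left 14170 genes to be tested. RNA was sequenced from 12 libraries of cells sorted from embryos at stage E7.25, when the germ layers form, with 3 libraries for each of 4 cell types. All embryos were of the Foxa2Cre:Rosa26-YFP line, in which Cre made from the Foxa2 gene switches on a yellow fluorescent protein (YFP) at the Rosa26 locus, so that YFP marks cells with a history of Foxa2 expression and not present Foxa2 expression. The types were YFP+ cardiac mesoderm (called ventricular in the labels), YFP- cardiac mesoderm (called non-ventricular), endoderm sorted as EPCAM+ and hematopoietic mesoderm sorted as KDR+. No sample without the Cre or the reporter was among the 12, and no source used here says whether embryos were pooled or whether libraries of 1 type came from separate embryos, so the p-values measure the spread between these libraries.

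DNA methylation is laid down de novo by Dnmt3a and Dnmt3b, helped by Dnmt3l, which resembles them but has no catalytic activity of its own. It is copied onto the new strand at each replication by Dnmt1, which Uhrf1 brings to half-methylated sites. Tet1, Tet2 and Tet3 oxidise methylated cytosine, and Tdg cuts out the most oxidised forms so that base excision repair can put back an unmethylated cytosine. In the mouse, methylation is erased before implantation and regained in the epiblast around the time of gastrulation, with Dnmt3b as the main de novo enzyme there, while extraembryonic lineages stay less methylated.

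The data showed 2 main differences and 1 weaker one. Dnmt3b mRNA was 1.87-fold higher in endoderm than in the mean of the 3 mesoderm types. Tet1 mRNA was lowest in hematopoietic mesoderm, at 1.88-fold below YFP+ cardiac mesoderm and 1.98-fold below endoderm. For Uhrf1, endoderm lay 1.76-fold below hematopoietic mesoderm, a call that several other ways of fitting the data did not keep. The Tet1 call against YFP+ cardiac mesoderm was lost in 2 of 7 other settings, and that against endoderm in 0 of them. Between YFP+ and YFP- cardiac mesoderm no member passed the test. Dnmt1, Dnmt3a, Dnmt3l, Tet2, Tet3 and Tdg did not pass it in any comparison of the main edgeR fit. Some other fits called Dnmt3a, Dnmt3l and Tet3.

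Levels are counts per 1000000 counts of the library (CPM) after trimmed-mean (TMM) scaling of the library totals, given as mean ± SD over 3 libraries. Differences were tested with the quasi-likelihood F test of edgeR over all 14170 genes, two-sided, and a gene is said to be called where its Benjamini-Hochberg adjusted p was under 0.05. Gene counts totalled 4472800 to 7888631 per library, and genes with at least 1 count numbered 18547 to 18618 in endoderm and 12484 to 16078 in the other types. Endoderm markers followed the label, and of 11 tested, 10 were called higher in endoderm than in the mean of the mesoderm types. Kdr was at 4.77 to 16.3 CPM in endoderm against 442 to 962 CPM in the mesoderm libraries. The latter range pools cardiac and hematopoietic libraries, so it does not show whether Kdr differed between hematopoietic and cardiac mesoderm. Summed cardiac mesoderm markers were at 1473 to 1760 CPM in the cardiac fractions and at 155 to 281 CPM in endoderm, and summed hematopoietic markers at 2415 to 2919 CPM in hematopoietic mesoderm and at most 1065 CPM elsewhere. Hematopoietic replicate 3 stood apart from its type, with a summed level of cardiac mesoderm markers of 1216 CPM against 452 and 573 CPM, and with the erythroid factor Gata1 at 0.209 CPM against 74.0 and 46.4 CPM. YFP+ replicate 2 had a summed level of hematopoietic markers of 1065 CPM against 550.3 and 606 CPM, with the blood factor Tal1 at 174 CPM against 13.7 and 21.9 CPM. Differences that involve either library are given with and without it where leaving it out changed the call. In sorted bulk samples, fewer cells that express a gene and less of its RNA per cell cannot be told apart.

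The de novo enzyme Dnmt3b (ENSMUSG00000027478.9, plus strand of chromosome 2, GRCm38 chr2:153649450-153687730) was the 1 member called in all 3 comparisons of endoderm with a single mesoderm type. The 250 bases before its start site, at chr2:153649199-153649448 of GRCm38.p6 (RefSeq, plus strand), are shown because this window lies outside every annotated exon and is rich in the CpG dinucleotides that the enzyme itself acts on, which are in capitals.
Dnmt3b: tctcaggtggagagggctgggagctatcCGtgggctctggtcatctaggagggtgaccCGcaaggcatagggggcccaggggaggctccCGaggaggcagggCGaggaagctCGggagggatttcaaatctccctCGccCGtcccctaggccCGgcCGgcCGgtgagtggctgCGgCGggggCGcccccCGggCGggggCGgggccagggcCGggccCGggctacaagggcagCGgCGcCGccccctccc
The window holds 21 CpG, against a median of 6 over the 32841 RefSeq windows of the same length. This is not particular to Dnmt3b. Other members had windows outside exons with more CpG, at 51 for Tet2, 38 for the first of Dnmt3a and 30 for the second of Uhrf1.

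Dnmt3b stood at 807, 742 and 723 CPM in endoderm. It stood at 378, 454 and 401 CPM in YFP+ cardiac mesoderm and at 289, 431 and 437 CPM in YFP- cardiac mesoderm. In hematopoietic mesoderm it stood at 370.0, 418 and 471 CPM. Every endoderm library was therefore above every mesoderm library, and the 3 mesoderm types overlapped each other. The type means were 758 ± 44.0 CPM in endoderm, 411 ± 38.9 CPM in YFP+ cardiac mesoderm, 386 ± 84.1 CPM in YFP- cardiac mesoderm and 420 ± 50.6 CPM in hematopoietic mesoderm (SD, n = 3).

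Against the mean of the 3 mesoderm types, the log2 fold change of Dnmt3b in endoderm was 0.91 ± 0.13 (SE; edgeR adjusted p = 0.00132). In that comparison 2 of the 9 members were called, Dnmt3b and Tet1, against 7.43% of all genes tested. Taken type by type, Dnmt3b was lower than in endoderm by 0.88 ± 0.17 on the log2 scale in YFP+ cardiac mesoderm (edgeR adjusted p = 0.0167), where it was the 1 member called and 1.54% of all genes were. It was lower by 0.98 ± 0.17 in YFP- cardiac mesoderm (edgeR adjusted p = 0.0105), again as the 1 member called, against 1.31% of all genes. Endoderm exceeded hematopoietic mesoderm by 0.85 ± 0.17 (edgeR adjusted p = 0.0132), a comparison in which 3 members and 5.65% of all genes were called. The call against the mean of the mesoderm types was kept when any 1 of the 12 libraries was dropped, with log2 fold changes of 0.88 to 0.96. The call against YFP+ cardiac mesoderm was lost without YFP+ replicate 1 or 3 or any 1 of the endoderm libraries (edgeR adjusted p = 0.0616 to 0.0963), and the calls against YFP- cardiac and hematopoietic mesoderm were lost without endoderm replicate 1 (0.0626 and 0.0615).

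Markers of epiblast and primitive streak were, as a sum, also higher in the endoderm libraries. Their summed level over 10 genes was 1485 to 1636 CPM in endoderm, 643 to 1377 CPM in YFP+ cardiac mesoderm, 791 to 1152 CPM in YFP- cardiac mesoderm and 276 to 1057 CPM in hematopoietic mesoderm. Of the 9 of these markers tested, 8 were higher in endoderm than in the mean of the mesoderm types, and 5 were called. Against hematopoietic mesoderm 8 were higher in endoderm, and 3 were called. Against each cardiac fraction, 2 of the 9 were higher in the cardiac fraction, and 0 were called in either direction. Utf1, a pluripotency factor, stood at 108 to 116 CPM in endoderm and at 0 to 19.7 CPM in the other libraries, and Otx2 at 345 to 364 CPM against 0.691 to 251 CPM. The part of such cells in the Dnmt3b difference was not tested.

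**Figure D1:**
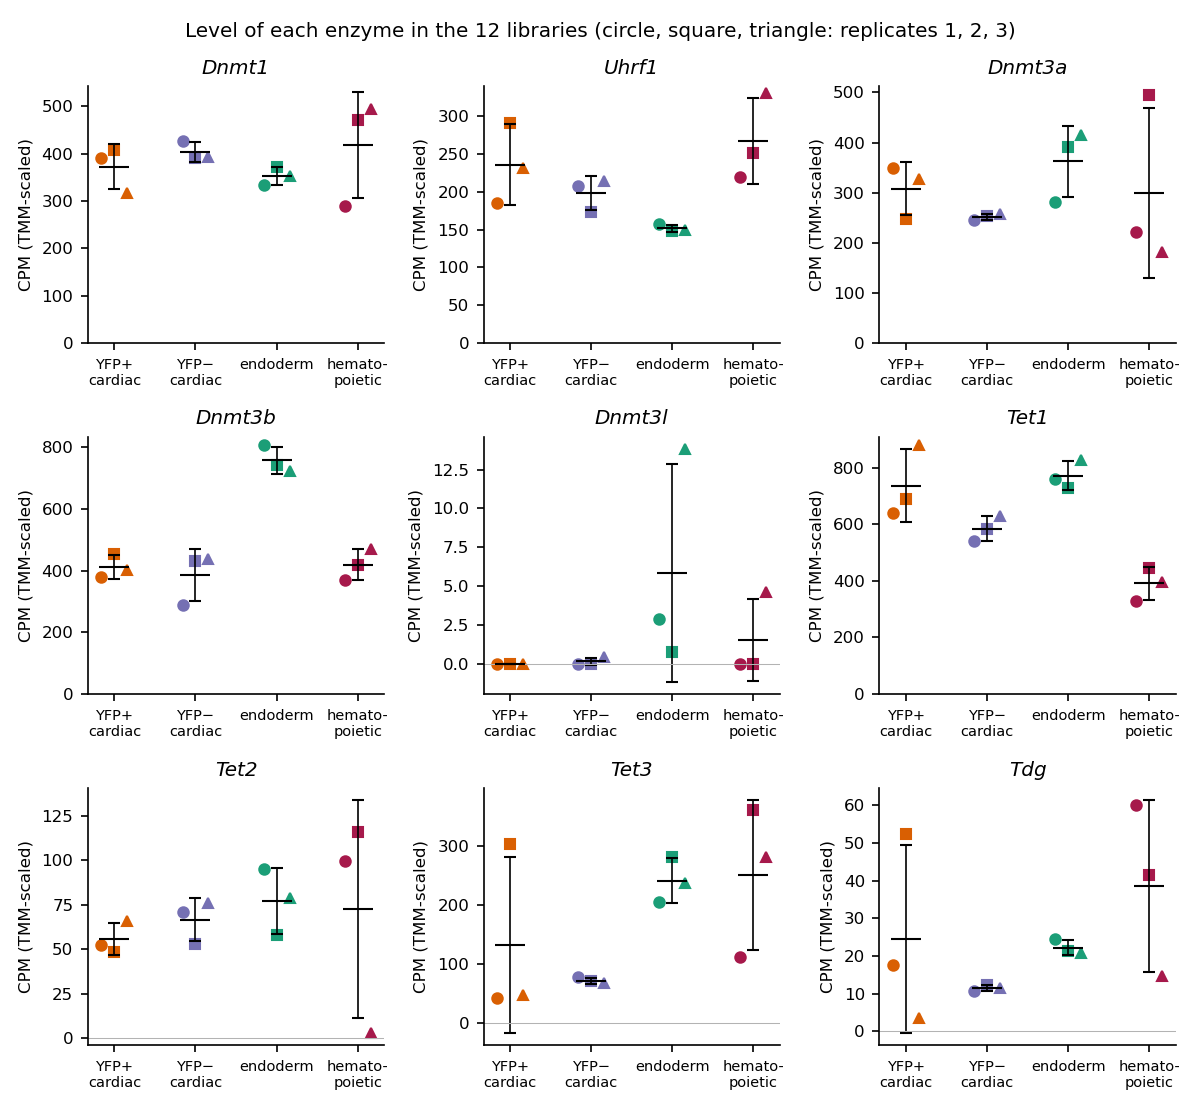
Level of each of the 9 enzymes in CPM after TMM scaling (vertical axes, a separate scale for each gene) in the 4 cell types (horizontal axes), with 1 point per library and circles, squares and triangles for replicates 1, 2 and 3. The 3 endoderm libraries sit above all others for Dnmt3b, at 723 to 807 CPM, and the 3 hematopoietic libraries sit lowest for Tet1, at 329.9 to 447 CPM.

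Dnmt3a (ENSMUSG00000020661.9, chr12:3806007-3914443, plus strand), the other catalytic de novo enzyme, did not follow Dnmt3b. It stood at 348, 248 and 328 CPM in YFP+ cardiac mesoderm and at 246, 254 and 257 CPM in YFP- cardiac mesoderm. It stood at 281, 391 and 415 CPM in endoderm and at 222, 495 and 181 CPM in hematopoietic mesoderm. The hematopoietic libraries alone spanned a 2.73-fold range, wider than any difference between type means, and the edgeR test for any difference among the 4 types, which called Dnmt3b, Tet1 and 6.03% of all genes, gave an adjusted p of 0.719. Without hematopoietic replicate 2, the library at 495 CPM, Dnmt3a was called higher in endoderm than in hematopoietic mesoderm (log2 fold change 0.85, edgeR adjusted p = 0.0393) and than in the mean of the mesoderm types (0.54, edgeR adjusted p = 0.0451). Dnmt3a has a processed pseudogene, Dnmt3a-ps1, and shares 133 exon bases with the antisense gene Dnmt3aos, and the strand setting of the counts is not given in the sources used here.

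Dnmt3l (ENSMUSG00000000730.7, chr10:78041947-78063622, plus strand), the cofactor that stimulates both catalytic enzymes, was close to the counting floor outside endoderm. It had 0 counts in all 3 YFP+ libraries, and 0, 0 and 3 counts in the YFP- libraries. Endoderm had 18, 6 and 117 counts, which are 2.85, 0.773 and 13.8 CPM, and hematopoietic mesoderm had 0, 0 and 22 counts. Against a floor of 3 counts in each library, mean Dnmt3l was at least 10.1-fold higher in endoderm than in YFP+ cardiac mesoderm and at least 12.9-fold higher than in YFP- cardiac mesoderm. These bounds allow for the floor in the cardiac libraries and not for the spread between the endoderm libraries. Neither pair was called (edgeR adjusted p = 0.182 for YFP+ and 0.512 for YFP-), and each was called in 0 of 17 other settings. The difference between endoderm and the mean of the mesoderm types was not called (edgeR adjusted p = 0.0824), and it was called without hematopoietic replicate 3, the 1 mesoderm library well above the floor (edgeR adjusted p = 0.0257). Endoderm replicate 3 supplied most of the endoderm mean, and without it these bounds were 3.16-fold and 4.01-fold. Some markers of extraembryonic ectoderm were high in the same libraries. Elf5, a trophoblast factor, stood at 8.55, 5.16 and 35.1 CPM in the 3 endoderm libraries and at 0 to 0.578 CPM in the other 9. Their sum over 8 genes was 85.2 to 212 CPM in endoderm, 5.40 to 31.9 CPM in the cardiac fractions and 55.4 to 219 CPM in hematopoietic mesoderm, and the part of such cells in the Dnmt3l counts was not tested. Hematopoietic replicate 1, with the highest sum of 219 CPM, had 0 Dnmt3l counts. Dnmt3l shares 67 exon bases with Aire on the other strand and has a processed pseudogene, Dnmt3l-ps1.

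**Figure D2:**
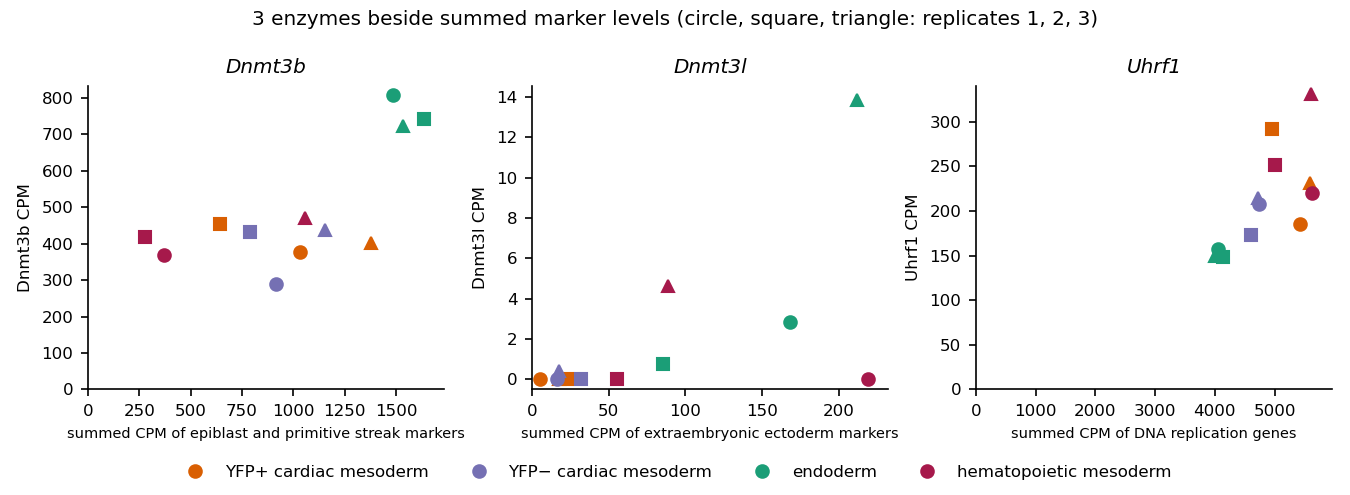
Level of Dnmt3b, Dnmt3l and Uhrf1 in CPM (vertical axes) against the summed CPM of epiblast and streak markers, extraembryonic ectoderm markers and DNA replication genes in the same library (horizontal axes), 1 point per library in the colour of its type. Endoderm lies at the upper right for Dnmt3b, with marker sums of 1485 to 1636 CPM, and at the lower left for Uhrf1, with replication sums of 4009 to 4142 CPM.

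Uhrf1 (ENSMUSG00000001228.8, chr17:56303321-56323486, plus strand), which recognises half-methylated DNA and recruits the maintenance enzyme, moved the other way from Dnmt3b. It stood at 157, 148 and 149.7 CPM in endoderm, a narrow range. It stood at 186, 292 and 231 CPM in YFP+ cardiac mesoderm, at 208, 173 and 215 CPM in YFP- cardiac mesoderm and at 220.4, 251 and 331 CPM in hematopoietic mesoderm. All 3 endoderm libraries were below all 9 mesoderm libraries. The log2 fold change of endoderm against hematopoietic mesoderm was -0.82 ± 0.21 (edgeR adjusted p = 0.0438). It was lost with RLE scaling (0.0565), with no expression filter (0.0720) and when certain single libraries were dropped (9 of 12), namely YFP+ replicate 3, any 1 YFP- or endoderm library, and hematopoietic replicate 2 or 3 (0.0541 to 0.173). Without hematopoietic replicate 3 the change was -0.63 (edgeR adjusted p = 0.110). Against the mean of the mesoderm types the change was -0.61 ± 0.18 (edgeR adjusted p = 0.0574), and DESeq2 called it (adjusted p = 0.0386), as did limma voom with library weights (adjusted p = 0.00271) and edgeR without YFP+ replicate 1 (0.0348) or hematopoietic replicate 1 (0.0361).

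Uhrf1 is known as a gene of proliferating cells. The sum of 12 listed DNA replication genes, with the cell division genes Top2a and Mki67 among them, was lowest in the same libraries. The summed level of 12 replication genes was 4009 to 4142 CPM in endoderm, 4611 to 4738 CPM in YFP- cardiac mesoderm, 4956 to 5593 CPM in YFP+ cardiac mesoderm and 5004 to 5625 CPM in hematopoietic mesoderm. Of the 12, only Top2a and Mki67 were called lower in endoderm than in the mean of the mesoderm types, and the rest were not called. In that comparison 7.43% of all genes tested were called. The median log2 fold change of the list was -0.32 beside 0.07 over all genes tested, and 1 of the 12 was higher in endoderm. Top2a, a topoisomerase of dividing cells, stood at 898 ± 15.7 CPM in endoderm and at 1241 ± 108 CPM in hematopoietic mesoderm (log2 fold change -0.46 ± 0.12, edgeR adjusted p = 0.0372). The part of cell division in the Uhrf1 difference was not tested.

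Dnmt1 (ENSMUSG00000004099.9, chr9:20907209-20959888, minus strand), the maintenance methyltransferase, was nearly level across the types. It stood at 392, 407 and 318 CPM in YFP+ cardiac mesoderm and at 427, 391 and 392 CPM in YFP- cardiac mesoderm. It stood at 335, 373 and 354 CPM in endoderm and at 289, 471 and 495 CPM in hematopoietic mesoderm. The lowest and highest values both fell within hematopoietic mesoderm. Endoderm against the mean of the mesoderm types differed by -0.17 ± 0.15 on the log2 scale (edgeR adjusted p = 0.700), and the test for any difference among the 4 types gave 0.824. Set beside each other, endoderm and hematopoietic mesoderm had means of 152 ± 4.64 and 268 ± 57.1 CPM for Uhrf1 and of 354 ± 19.0 and 418 ± 113 CPM for Dnmt1.

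Uhrf1 and Dnmt1 were the 2 members with a match to an E2F site, the element bound by the factors that drive genes of the S phase, in the 250 bases before an annotated start. The letters searched were TTTCGCGC, TTTGGCGC and TTTCCCGC on both strands, and 504 of the 32841 RefSeq windows, 1.53%, held one of them. The 2 stretches are shown with the match in capitals, 185 bases before the second listed start of Uhrf1 (chr17:56304117-56304146, plus strand) and 219 bases before the first listed start of Dnmt1 (chr9:20952824-20952853, minus strand), both in GRCm38.p6.
Uhrf1: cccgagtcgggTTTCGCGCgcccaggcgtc
Dnmt1: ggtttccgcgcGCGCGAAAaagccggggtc
The Dnmt1 letters are the reverse complement of those of Uhrf1. Of the 250 bases of that Dnmt1 window, 166 lie in annotated exons. The windows hold 26 CpG for Dnmt1 and 30 for Uhrf1, against a median of 6 over the RefSeq windows. All the letters searched hold a CpG, so the 1.53% is not a share over windows of like CpG content. All 9 members matched the RefSeq table, with 16 windows between them, and a match of letters does not show that a factor binds there.

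Tet1 (ENSMUSG00000047146.9, chr10:62804570-62908996, minus strand), the TET enzyme of pluripotent cells and early embryos, was lowest in hematopoietic mesoderm. It stood there at 329.9, 447 and 396 CPM. It stood at 639, 691 and 881 CPM in YFP+ cardiac mesoderm and at 539.8, 584 and 628 CPM in YFP- cardiac mesoderm. In endoderm it stood at 759.8, 729 and 828 CPM. The hematopoietic libraries did not overlap any other type, YFP- cardiac mesoderm lay below endoderm without overlap, and YFP+ cardiac mesoderm spanned the endoderm range. The type means were 391 ± 58.7, 584 ± 44.0, 737 ± 128 and 772 ± 50.6 CPM in hematopoietic, YFP- cardiac and YFP+ cardiac mesoderm and endoderm.

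The log2 fold change of Tet1 in endoderm over hematopoietic mesoderm was 0.98 ± 0.15 (edgeR adjusted p = 0.00283), and it stayed called in every one of the 12 fits without 1 library and under each of the 7 other settings. YFP+ cardiac mesoderm exceeded hematopoietic mesoderm by 0.91 ± 0.15 (edgeR adjusted p = 0.0113), as the 1 member called where 1.79% of all genes were. YFP- cardiac mesoderm exceeded it by 0.58 ± 0.15, which was not called (edgeR adjusted p = 0.0948). In that last comparison edgeR called 0 members, 2 members and 17.4% of all genes had an unadjusted p under 0.05, 0.593% of all genes were called, and DESeq2 called Tet1 and Tet3 (adjusted p = 0.00712 and 0.0347). Against the mean of the cardiac fractions, Tet1 in hematopoietic mesoderm was lower by 0.75 ± 0.13 on the log2 scale (edgeR adjusted p = 0.0133), again as the 1 member called, with 2.58% of all genes. Without hematopoietic replicate 3 these values were 1.00 for endoderm (edgeR adjusted p = 0.00696), 0.93 for YFP+ cardiac mesoderm (0.0132) and -0.76 against the cardiac mean (0.0188). The last and the YFP+ difference were not called with limma voom (adjusted p = 0.141 and 0.124) or by edgeR fitted to only the types compared (0.0508 and 0.192).

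Endoderm also exceeded the mean of the mesoderm types in Tet1, by 0.49 ± 0.12 (edgeR adjusted p = 0.0226), although its libraries overlapped those of YFP+ cardiac mesoderm. That call was lost without any 1 of the 3 endoderm libraries (edgeR adjusted p = 0.0510 to 0.112). Tet1 was also the 1 member whose libraries did not overlap between the cardiac fractions, with YFP+ above YFP- in all 3 libraries, where 12.1% of all genes did not overlap. The difference was 0.34 ± 0.15 on the log2 scale, and it was not called (edgeR unadjusted p = 0.0402, adjusted p = 0.646).

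**Figure D3:**
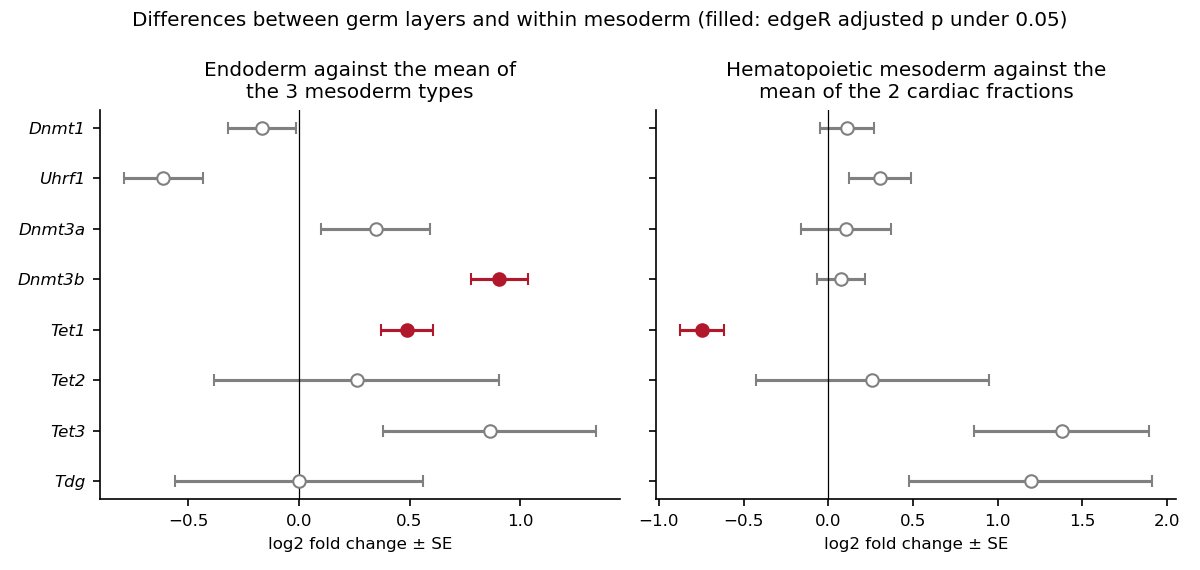
Log2 fold change ± SE of 8 members in endoderm against the mean of the 3 mesoderm types (left) and in hematopoietic mesoderm against the mean of the cardiac fractions (right), with filled points where the edgeR adjusted p was under 0.05. Dnmt3b at 0.91 and Tet1 at 0.49 are filled on the left and Tet1 at -0.75 on the right. Dnmt3l, with counts of 0 in most mesoderm libraries, is not drawn.

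Tet3 (ENSMUSG00000034832.9, chr6:83362373-83459084, minus strand), the TET enzyme best known from the oocyte and zygote, was high in endoderm and hematopoietic mesoderm and low in the cardiac fractions but for 1 library. It stood at 206, 282 and 237 CPM in endoderm and at 112, 362 and 282 CPM in hematopoietic mesoderm. It stood at 77.2, 70.1 and 66.9 CPM in YFP- cardiac mesoderm. In YFP+ cardiac mesoderm it stood at 42.8, 305 and 47.6 CPM, so that replicate 2 was 7.13-fold above replicate 1. That library is the one with more hematopoietic marker RNA.

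With all libraries, edgeR fitted to the 4 types called no Tet3 difference. YFP- cardiac mesoderm had log2 fold changes of -1.76 ± 0.64 against endoderm (edgeR adjusted p = 0.269) and -1.82 ± 0.64 against hematopoietic mesoderm (edgeR adjusted p = 0.182), without overlap of libraries in either case. Other fits of all libraries did call Tet3. With limma voom it was called between YFP- cardiac mesoderm and endoderm (adjusted p = 0.0128) and in endoderm against the mesoderm mean (0.0174). DESeq2 called the difference between YFP- cardiac and hematopoietic mesoderm (adjusted p = 0.0347). A fit of edgeR to only YFP- cardiac mesoderm and endoderm, which leaves out all YFP+ libraries, called Tet3 between these types (adjusted p = 0.000413). Without YFP+ replicate 2, Tet3 was called lower in YFP+ cardiac mesoderm than in endoderm (-2.42, edgeR adjusted p = 0.0209) and than in hematopoietic mesoderm (-2.47, 0.0214). In the same fit it was called lower in YFP- cardiac mesoderm than in endoderm (-1.76, 0.0326) and than in hematopoietic mesoderm (-1.81, 0.0485), and higher in endoderm than in the mean of the mesoderm types (1.38, 0.0131). Against the mean of the cardiac fractions, hematopoietic mesoderm had a Tet3 log2 fold change of 1.38 ± 0.52 with that library (edgeR adjusted p = 0.157) and of 2.14 ± 0.31 without it (0.00727). The Tet3 calls thus changed both with that library and with the fit, and whether its hematopoietic markers account for its Tet3 was not tested.

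Tet2 (ENSMUSG00000040943.8, chr3:133463679-133545139, minus strand), a TET enzyme best known from blood cells, was low throughout. It stood at 52.5, 48.5 and 65.7 CPM in YFP+ cardiac mesoderm, at 71, 52.8 and 76 CPM in YFP- cardiac mesoderm and at 95, 58.1 and 78.7 CPM in endoderm. In hematopoietic mesoderm it stood at 99.6, 116 and 2.72 CPM, the last from 13 counts in replicate 3. The highest and the lowest Tet2 value of the series were thus both in that type. No comparison was called (edgeR adjusted p = 0.985 for any difference among the 4 types). Without hematopoietic replicate 3, Tet2 was -0.95 ± 0.36 in YFP+ cardiac against hematopoietic mesoderm (edgeR adjusted p = 0.175), compared with -0.39 ± 0.80 with it.

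Tdg (ENSMUSG00000034674.12, chr10:82629828-82650799, plus strand), the glycosylase that removes oxidised cytosine, was low and varied widely in 2 of the types. It stood at 24.5, 21.3 and 20.9 CPM in endoderm and at 10.9, 12.4 and 11.6 CPM in YFP- cardiac mesoderm, each within a narrow range. In YFP+ cardiac mesoderm it stood at 17.6, 52.4 and 3.69 CPM and in hematopoietic mesoderm at 60.0, 41.4 and 14.7 CPM. As for Tet3, YFP+ replicate 2 was the highest library of its type. YFP- cardiac mesoderm lay below endoderm and below hematopoietic mesoderm without overlap, and neither difference was called (log2 fold changes -0.94 ± 0.87 and -1.73 ± 0.88, edgeR adjusted p = 0.980 and 0.334). Tdg has a processed pseudogene, Tdg-ps, and reads that aligned to more than 1 place were not counted, so the levels of Tdg, Dnmt3a and Dnmt3l may be too low. It also shares 367 exon bases with Glt8d2 on the other strand.

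Counting only whether libraries overlapped, YFP- cardiac mesoderm and endoderm were the pair that the members separated most often. There, 8 of 9 members did not overlap, against 29.4% of all genes tested: Dnmt1 and Uhrf1 were higher in YFP- cardiac mesoderm and Dnmt3a, Dnmt3b, Dnmt3l, Tdg, Tet1 and Tet3 lower, and Tet2 overlapped. Between YFP+ cardiac mesoderm and endoderm 3 of 9 did not overlap, against 30.3%. Between endoderm and hematopoietic mesoderm 3 did not, against 34.3%. Between YFP- cardiac and hematopoietic mesoderm 4 did not, against 18.6%, and between YFP+ cardiac and hematopoietic mesoderm 1 did not, against 14%. Endoderm was separated from all mesoderm libraries in 2 members, Dnmt3b and Uhrf1, against 9%, and hematopoietic mesoderm from both cardiac fractions in 1, Tet1, against 7.67%. The spread between libraries differed by type. Over genes of at least 100 CPM, the median coefficient of variation was 9.54% in endoderm, 13.5% in YFP- cardiac, 21.7% in YFP+ cardiac and 28.1% in hematopoietic mesoderm. Over all genes tested, YFP- cardiac mesoderm and endoderm were separated less often (29.4%) than endoderm and YFP+ cardiac (30.3%) or hematopoietic mesoderm (34.3%). The part of this spread in the counts of separated members was not tested.

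Between the cardiac fractions edgeR called 0 of 9 members and 0% of all genes tested. At an unadjusted p under 0.05 there was 1 member, Tet1, against 7.49% of all genes. DESeq2 called 0 members and 110 genes in all, and limma voom called 0 of both. The other 8 log2 fold changes of YFP+ over YFP- had edgeR adjusted p of 0.838 to 0.999, among them Dnmt3b at 0.09 ± 0.17, Dnmt1 at -0.12 ± 0.19 and Uhrf1 at 0.25 ± 0.21. Without YFP+ replicate 2 the Uhrf1 value was 0.071 (edgeR adjusted p = 0.969). With SE of 0.63 for Tet3, 0.80 for Tet2, 0.87 for Tdg and 2.41 for Dnmt3l, differences of a log2 unit were not detectable for those genes.

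Per kilobase of exon, which allows the genes to be set side by side, Dnmt3b had the highest mean of the 9, at 96.6 CPM per kb over the 12 libraries (56.5 to 158). Dnmt1 (52.5 CPM per kb), Uhrf1 (50.1) and Tet1 (40.2) followed, with ranges over libraries that overlapped each other and that of Dnmt3b. In YFP- replicate 1, Dnmt1 at 57.9 CPM per kb was above Dnmt3b at 56.5. Dnmt3a (18.4) and Tet3 (10.4) came next, then Tdg (4.52) and Tet2 (4.03), whose order differed between types, and Dnmt3l was lowest (0.628). Tet2 was above Tdg in YFP- cardiac mesoderm (3.95 against 2.16 CPM per kb) and endoderm (4.58 against 4.14) and below it in the other types. In endoderm Dnmt3b reached 148 ± 8.61 CPM per kb, against 48.0 ± 2.57 for Dnmt1 and 49.97 ± 3.27 for Tet1. In hematopoietic mesoderm Tet1 was at 25.3 ± 3.797 CPM per kb, below Dnmt1 at 56.7 ± 15.3. Exon length was the union of all annotated exons of a gene, which exceeds any 1 transcript and so lowers the value of genes with many transcript models.

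**Figure D4:**
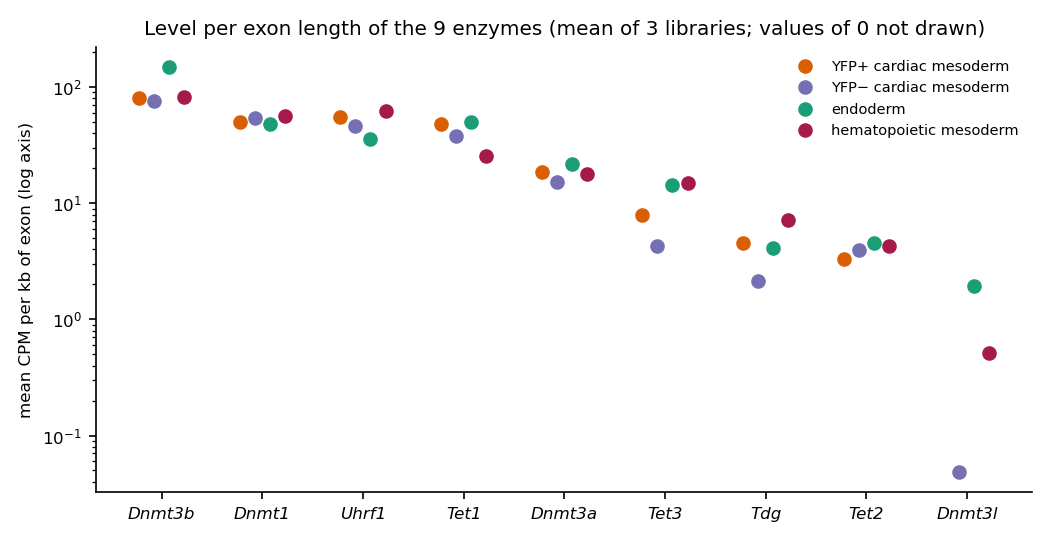
Mean level of the 9 enzymes in CPM per kb of exon (vertical log axis) in the 4 types, each point the mean of 3 libraries, with values of 0 not drawn. Dnmt3b is highest in every type, up to 148 CPM per kb in endoderm, and Dnmt3l is lowest, with no point for YFP+ cardiac mesoderm.

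Within the pair of catalytic de novo enzymes, Dnmt3b made up most of the mRNA per exon length in every library, from 73.3% in hematopoietic replicate 2 to 90.4% in endoderm replicate 1. Its share was 87.2 ± 2.82% in endoderm, 81.2 ± 3.99% in YFP+ cardiac mesoderm, 82.9 ± 3.12% in YFP- cardiac mesoderm and 82.4 ± 8.24% in hematopoietic mesoderm. The hematopoietic libraries, at 73.3% to 89.5%, thus spanned the means of the other types, with endoderm replicate 1 above them. Without the length correction, the type means of the Dnmt3b share were 57.2% to 67.7%, because the annotated exons of Dnmt3a are longer. By library this uncorrected share ran from 45.8% in hematopoietic replicate 2 to 74.2% in endoderm replicate 1. Dnmt3b as the larger part in every library thus held only with the correction.

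Per exon length, Tet1 made up most of the TET pool in every library. Tet1 held 82.1 ± 2.03% of it in YFP- and 81.8 ± 12.01% in YFP+ cardiac mesoderm. Its share was 72.3 ± 2.18% in endoderm, against 57.8 ± 6.60% for hematopoietic mesoderm. By library it was 62.9%, 50.3% and 60.1% in hematopoietic mesoderm, below the lowest library of every other type, 67.9% in YFP+ replicate 2. Tet3 held 32.3 ± 10.97% in hematopoietic mesoderm, 21.01 ± 3.54% in endoderm and 9.34 ± 1.21% in YFP- cardiac mesoderm. In the YFP+ libraries the Tet3 share was 5.45%, 27.7% and 4.47%, so 2 libraries lay below the YFP- range and replicate 2 lay within that of hematopoietic mesoderm, 19.7% to 39.6%. Tet2 held 0.378% to 17.4% over all libraries. Without the length correction, Tet1 held 48.3% of the TET counts in hematopoietic replicate 2. These shares are descriptions and were not tested.

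**Figure D5:**
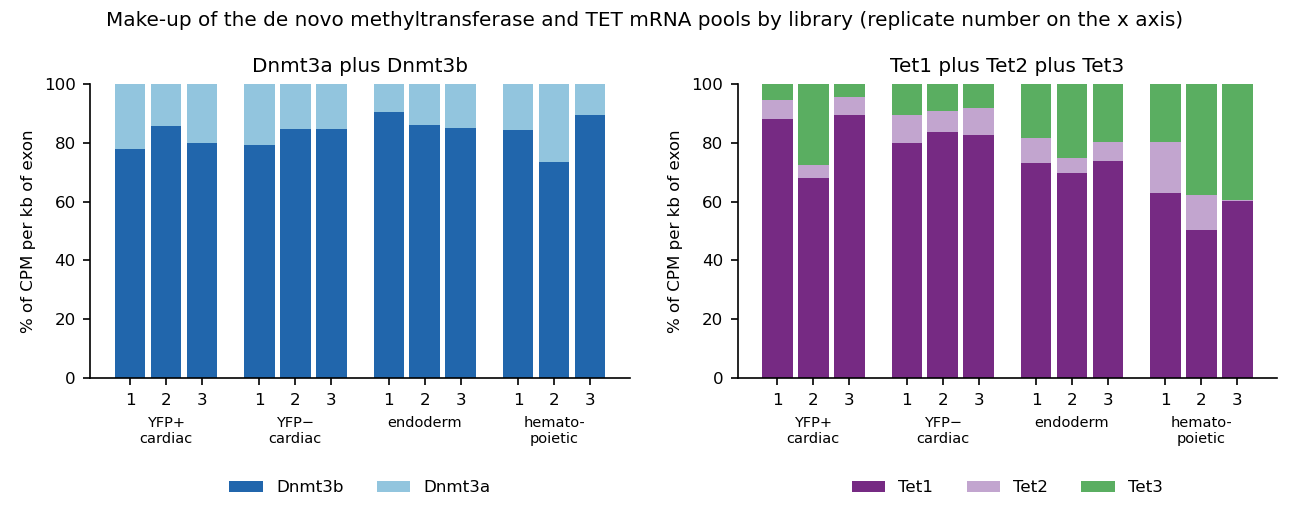
Share of each gene in the summed CPM per kb of exon of Dnmt3a plus Dnmt3b (left) and of Tet1, Tet2 and Tet3 (right), as a percentage on axes from 0 to 100, 1 stacked bar per library. Tet1 takes 50.3% to 62.9% of the TET pool in the hematopoietic libraries and 67.9% or more in the others.

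The other genes of the pathway are read against all genes tested, of which edgeR called 0% to 5.65% in the 6 pairs of types and 7.49% to 22.8% had an unadjusted p under 0.05. Of 16 genes for the recruitment and regulation of the methyltransferases, 15 were tested and edgeR called 0 in any pair, with 0 to 2 at an unadjusted p under 0.05. Named by the smallest p of the list, the histone methyltransferases Nsd1 and Setd2 stood at 925 ± 33.3 and 543 ± 14.4 CPM in endoderm and at 1237 ± 204 and 755 ± 220 CPM in hematopoietic mesoderm. Of 13 readers of methylated or unmethylated CpG, all were tested and 0 were called by edgeR in any pair, again with 0 to 2 at an unadjusted p under 0.05. By the same rule, Zbtb4, a methyl-CpG binding zinc finger protein, stood at 5.85 to 9.22 CPM in YFP- cardiac mesoderm and at 0 to 1.73 CPM in hematopoietic mesoderm. Cxxc4, which binds unmethylated CpG, stood at 2.16, 44.5 and 207 CPM in the hematopoietic libraries and at 2.95 to 30.8 CPM in the other 9.

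Among 18 genes of base excision, deamination and TET regulation, 14 were tested and 2 were called in some pair. Gadd45g, a stress and differentiation gene proposed to aid demethylation, stood at 94.4, 77.9 and 68.4 CPM in hematopoietic mesoderm. It stood at 1.11, 0.387 and 0.828 CPM in endoderm (log2 fold change -6.66 ± 1.48, edgeR adjusted p = 0.0250) and at 0 to 20.96 CPM in the cardiac fractions. Ogt, the glycosyltransferase that binds TET proteins, was lower in hematopoietic mesoderm than in endoderm and YFP+ cardiac mesoderm, as was Tet1. It stood at 265, 375 and 452 CPM in hematopoietic mesoderm, 616, 622 and 508 CPM in endoderm and 548, 621 and 679 CPM in YFP+ cardiac mesoderm. Ogt was called lower in hematopoietic mesoderm than in endoderm (log2 fold change of endoderm over hematopoietic 0.68 ± 0.18, edgeR adjusted p = 0.0422) and than in YFP+ cardiac mesoderm (0.76 ± 0.18, edgeR adjusted p = 0.0485). Between YFP- cardiac and hematopoietic mesoderm 0 of the 14 genes were called, so Ogt was not called there.

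Of 16 genes that supply the methyl donor or the TET cofactor, all were tested and 1 was called. Shmt2, the mitochondrial enzyme that feeds carbon units from serine into the folate cycle, stood at 103, 98.3 and 114 CPM in endoderm and at 208, 258 and 298 CPM in hematopoietic mesoderm (log2 fold change -1.27 ± 0.21, edgeR adjusted p = 0.00497). It was also lower in endoderm than in the mean of the mesoderm types (-0.84 ± 0.18, edgeR adjusted p = 0.0106), so its low levels fell in the libraries where Uhrf1 was low.

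The genes whose levels followed each called member most closely over the 12 libraries were found by Pearson correlation of log2 CPM among 7460 genes. For Dnmt3b they were Tmprss2 (r = 0.925), Zfp462 (0.923) and Fzd5 (0.915), all highest in endoderm, with Fzd5, a Wnt receptor, at a mean of 485 CPM there against 12.8 to 19.9 CPM in the mesoderm types. For Tet1 they were Arid3b (r = 0.940), Lrig3 (0.922) and Eml1 (0.919), each with its lowest mean in hematopoietic mesoderm, as for Arid3b at 80.5 CPM against 235 to 340 CPM elsewhere. For Uhrf1 they were Eif4h (r = 0.920), Noc2l (0.913) and Eno1 (0.909), each with its lowest mean in endoderm. The 12 points share their type means and their library scaling, so these values describe the order of the types as much as the single libraries.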

How the data were processed

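Gene-level counts of 12 libraries, deposited by the authors as raw read counts per gene with no scaling, were used as given. STAR 2.5.0a, Picard, HTSeq 0.6.0, DESeq2 and the mm10 build are named in the submitters' processing notes, without their settings; the annotation release and strand setting are not given in the sources used here. Of tallied reads, 18.3% to 21.5% fell in genes, 34.5% to 43.6% in no feature and 35.1% to 44.8% aligned to more than 1 place; these summary lines were left out of all totals. A floor of 3 counts equals 0.355 to 0.720 CPM, and PCR copies were not told apart, so floors cover counting error only.

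Symbols and coordinates came from GENCODE M21 (GRCm38), with a symbol for 37607 of 38924 genes. In R 4.3.3, edgeR 4.0.16 was fitted to all 12 libraries with the cell type as the only term (8 residual degrees of freedom), TMM scaling and edgeR's expression filter. It was tested on simulated data, and 9 comparisons were made. Alternatives were RLE scaling, 2 other filters, a block for the replicate number, DESeq2 1.42.0, limma 3.58.1 voom with quality weights, fits of only the types compared, and leaving out each library. All members are named. In the other lists, genes called in a pair were named, or the 2 with the smallest p where none was; Mki67 was added after its values were seen. Members and lists were chosen with earlier results of these data known. No 2 libraries of 1 type agreed within sampling noise.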

Additional observations from a re-analysis of the deposited data

How the results depend on the processing

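Of 1226 values of single members under other settings, 1138 kept their direction and side of the threshold, 26 lost the call, 20 gained it and 42 changed sign. With limma voom, 2 members (and 7.97% of all genes) were called between YFP+ cardiac mesoderm and endoderm, 3 (12.8%) between YFP- cardiac mesoderm and endoderm, 5 (21.8%) in endoderm against the mesoderm mean, 0 (0.127%) between YFP+ cardiac and hematopoietic mesoderm and 0 (1.17%) in hematopoietic mesoderm against the cardiac mean. Fits of only the types compared called 3, 0 and 0 members (10.1%, 0.121% and 0.764% of all genes) for YFP- cardiac mesoderm against endoderm, YFP+ cardiac against hematopoietic mesoderm and hematopoietic mesoderm against the cardiac mean; in these, Tet1 had adjusted p of 0.192 and 0.0508 in the last 2. DESeq2 called 2 (7.43%) between YFP- cardiac and hematopoietic mesoderm. The cause of these shifts was not tested. Leaving out 1 library gave 0 to 2 members for each cardiac fraction against endoderm (0.46% to 2.65% of all genes), 1 to 2 for YFP+ cardiac against hematopoietic mesoderm (0.695% to 2.79%) and 0 to 1 for YFP- cardiac against hematopoietic mesoderm (0.105% to 1.62%). It gave 1 to 3 for endoderm against hematopoietic mesoderm (1.2% to 6.41%) or the mesoderm mean (3.2% to 9.91%), 1 to 2 for hematopoietic mesoderm against the cardiac mean (0.842% to 4.12%) and 1 to 3 for any difference (1.41% to 6.48%).

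The 42 sign changes fell on 20 member differences, 0 of which were called with all libraries or where the sign changed. With the replicate block they were Tdg in YFP+ cardiac mesoderm minus endoderm (-0.29), Tet2 in YFP- cardiac minus hematopoietic mesoderm (0.0094) and Tet3 in endoderm minus hematopoietic mesoderm (0.079). With limma voom they were the same Tdg (-0.53) and Tet2 (0.27) differences, Dnmt3a in YFP+ cardiac minus hematopoietic mesoderm (-0.16) and Tet2 in hematopoietic mesoderm minus the cardiac mean (-0.13). Without 1 library, YFP+ minus YFP- ranged from -0.090 to 0.18 for Dnmt3b, -0.66 to 1.30 for Tet3 and -0.13 to 1.59 for Tdg. YFP+ cardiac mesoderm minus endoderm ranged from -0.22 to 0.026 for Tet1 and -1.06 to 0.65 for Tdg. YFP+ cardiac minus hematopoietic mesoderm ranged from -0.22 to 0.62 for Dnmt3a, -0.11 to 0.066 for Dnmt3b, -0.35 to 0.0065 for Uhrf1 and -0.95 to 0.13 for Tet2. YFP- cardiac minus hematopoietic mesoderm ranged from -0.26 to 0.090 for Dnmt1, -0.50 to 0.33 for Dnmt3a, -0.21 to 0.057 for Dnmt3b and -0.69 to 0.39 for Tet2. Endoderm minus hematopoietic mesoderm ranged from -0.48 to 0.60 for Tet2 and -0.41 to 0.30 for Tet3, and endoderm minus the mesoderm mean from -0.17 to 0.40 for Tdg. Hematopoietic mesoderm minus the cardiac mean ranged from -0.032 to 0.31 for Dnmt1, -0.47 to 0.36 for Dnmt3a, -0.020 to 0.16 for Dnmt3b and -0.26 to 0.82 for Tet2.

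The labels do not say that replicate numbers pair libraries, but same-numbered libraries share a date-like string in the names of their deposited files, whose meaning is not stated. Deviations of same-numbered libraries correlated by 0.0139 on average and by 0.0319 at most, against a mean of -0.0069 for libraries of different numbers. Of the 12 libraries, 10 correlated best with their own number. This is a hint of pairing, and its source was not tested. The replicate block ended the Uhrf1 call between endoderm and hematopoietic mesoderm (log2 fold change -0.80, edgeR adjusted p = 0.0675), brought a Dnmt3l call in endoderm against the mesoderm mean (0.0314) and changed no other member's call. Dnmt3l, at 0 counts in most mesoderm libraries, was called in 4 of 17 settings in that comparison (adjusted p = 0.0119 to 0.428), and the part of depth was not tested.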

Other observations

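Of 12 germline genes known to be silenced by promoter methylation in the embryo, 3 passed the expression filter and edgeR called 0 of them in any pair of types, with 0 to 1 at an unadjusted p under 0.05. Their summed level was 1.504 to 56.5 CPM over the 12 libraries. The 2 genes of this list with the smallest p-values were Stk31 and Sycp3, both best known from germ cells. Stk31 stood at 5.38, 0.129 and 6.03 CPM in the endoderm libraries, at 7.74 CPM in hematopoietic replicate 3 and at 0 to 0.184 CPM in the others. Sycp3 stood at 0, 16.2 and 46.9 CPM in the hematopoietic libraries and at 0.167 to 19.9 CPM in the other 9. Markers of germ cells, which lose DNA methylation later in development, summed to 316 to 346 CPM in endoderm, 71.8 to 188 CPM in hematopoietic mesoderm and 11.2 to 41.1 CPM in the cardiac fractions, and 2 of the 4 tested, Prdm1 and Kit, were called higher in endoderm than in the mean of the mesoderm types. Both genes are also active outside the germ line.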
